A study of Mus musculus with 4 samples.

Results

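Histone H3 methylated at lysine 9 (H3K9) marks heterochromatin, and 10 genes that write, read, recruit or erase this mark were examined for the accessibility of their own chromatin in mouse embryonic fibroblasts with and without the histone acetyltransferase HAT1. The 10 genes were Suv39h2, Ehmt1, Ehmt2, Setdb1, Cbx1, Cbx3, Cbx5, Trim28, Kdm4a and Kdm4c. A site was taken when it overlapped the body of one of these genes, or lay within 10 kb of its 5′ end, in the GENCODE annotation of mm10. By this rule 32 of the 82325 sites in the ATAC-Seq table belonged to the genes, between 1 (Suv39h2, Cbx3) and 5 (Ehmt2, Cbx5) per gene. ATAC-Seq counts the places where the Tn5 transposase can insert adapters, and more reads at a site are read here as higher accessibility. Other sources of a difference in reads were not tested.

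The study asked how loss of HAT1, which acetylates newly made histone H4, changes chromatin accessibility. There were 4 libraries, 2 from HAT1+/+ lines (WT) and 2 from HAT1-/- lines (HAT1 KO, here KO), all on a C57bl6 background and grown without any treatment. Every line was derived from an embryo and immortalized with the SV40 T antigen, so that both genotypes carry this viral protein. Each library came from 1 line, and replicate numbers follow the order of deposit. Differences between lines therefore cannot be told apart from differences between libraries. The p-values rest on the spread between libraries of the same genotype, in part pooled over sites of similar level.

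Methylation of H3K9 is laid down by SET-domain methyltransferases. SUV39H2 makes the trimethylated form at pericentric repeats, EHMT1 and EHMT2 work as a pair that makes the mono- and dimethylated forms in euchromatin, and SETDB1 is brought to retrotransposons by KRAB zinc finger proteins through the corepressor TRIM28. The heterochromatin protein 1 family (CBX1, CBX3 and CBX5, also HP1 beta, gamma and alpha) binds the mark through a chromodomain, and the jumonji enzymes KDM4A and KDM4C remove it.

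Values are normalized counts. From the steps in the low values, WT replicates 1 and 2 were estimated to rest on 9430000 and 11400000 reads within sites and KO replicates 1 and 2 on 7830000 and 5680000, so that both KO libraries were the shallower. The lowest value at any of the 32 sites, 12 in KO replicate 1 at an intronic site of Kdm4c, stood for about 11 reads, and the highest, 872 in KO replicate 2 at the Kdm4a promoter, for about 581. The promoter site of Hat1 itself (chr2:71388852-71389931) held 390 and 384 in WT and 438 and 368 in KO, and gave no check of the genotype. Of 9 fibroblast marker genes, 8 had a site within 3 kb of the 5′ end, with a median of 212 and a range of 78.8 to 866, and Pdgfra had none. Of 13 markers of epithelium, endothelium, blood and neural cells, 9 had such a site, with a median of 63.0 and a range of 20.5 to 180, while Cdh5, Ptprc, Spi1 and Sox10 had none.

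The promoter sequences of the genes are given first, since the accessibility of their starts is what the results turn on. All 10 genes matched the RefSeq promoter table (GRCm38.p6, 250 bases before to 50 after the start) with 14 windows, and 9 of the 14, 1 for each gene but Cbx3, overlapped a site, against 41.1% of all 32851 promoter windows. The median window of these genes held 28 CpG dinucleotides, against 7 over all windows. Both strands were searched for the GC box GGGCGG, which binds SP family factors, and it was present in 11 of the 14 windows (9 of 10 genes, Kdm4a being without it) against 35.7% of all windows. CCAAT was present in 3 windows (Setdb1, Cbx5 and Kdm4a; 37.4% of all), the ETS motif CCGGAAG in 1 (Setdb1; 8.86%), the YY1 motif AAGATGG in 1 (Suv39h2; 6.34%), an E2F motif (TTTCGCGC or TTTGGCGC) in 1 (Cbx3; 0.813%), and the NRF1 motif GCATGCGC in none (2.71%). A match is a run of letters and not a binding site. Below are the windows of Kdm4a, with the strongest site, and of Suv39h2, whose single site hardly differed between genotypes. Then follow Trim28, whose start varied most between lines, and the windows of Cbx3 and Cbx5 that overlapped no site. Capitals mark matches to the motifs named above on either strand, no 2 of which shared a base.
Kdm4a promoter, chr4:118179994-118180293, minus strand: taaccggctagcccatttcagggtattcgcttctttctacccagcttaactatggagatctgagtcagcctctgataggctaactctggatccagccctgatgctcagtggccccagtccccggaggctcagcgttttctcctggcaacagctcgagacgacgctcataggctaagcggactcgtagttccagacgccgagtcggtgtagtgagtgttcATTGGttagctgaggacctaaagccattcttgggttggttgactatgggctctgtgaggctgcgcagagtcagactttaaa
Suv39h2 promoter, chr2:3474937-3475236, minus strand: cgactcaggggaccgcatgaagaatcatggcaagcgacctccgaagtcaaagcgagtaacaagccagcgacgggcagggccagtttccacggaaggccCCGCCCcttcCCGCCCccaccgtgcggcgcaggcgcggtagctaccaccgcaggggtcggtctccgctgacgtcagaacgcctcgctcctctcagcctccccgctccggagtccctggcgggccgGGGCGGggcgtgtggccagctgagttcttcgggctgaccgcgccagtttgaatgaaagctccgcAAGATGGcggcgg
Trim28 promoter, chr7:13023902-13024201, plus strand: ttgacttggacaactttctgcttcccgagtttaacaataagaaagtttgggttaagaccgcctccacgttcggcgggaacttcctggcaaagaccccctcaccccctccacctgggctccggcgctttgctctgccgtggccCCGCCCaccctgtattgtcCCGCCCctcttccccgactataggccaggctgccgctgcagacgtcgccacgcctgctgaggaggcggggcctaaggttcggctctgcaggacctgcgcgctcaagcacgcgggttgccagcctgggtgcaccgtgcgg
Cbx3 promoter, chr6:51470366-51470665, plus strand: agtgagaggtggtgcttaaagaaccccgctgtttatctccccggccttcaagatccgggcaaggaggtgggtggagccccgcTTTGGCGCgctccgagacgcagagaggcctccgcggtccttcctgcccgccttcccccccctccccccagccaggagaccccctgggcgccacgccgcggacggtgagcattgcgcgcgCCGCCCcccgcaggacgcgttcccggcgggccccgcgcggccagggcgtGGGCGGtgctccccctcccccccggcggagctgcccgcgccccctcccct
Cbx5 upstream promoter, chr15:103239803-103240102, minus strand: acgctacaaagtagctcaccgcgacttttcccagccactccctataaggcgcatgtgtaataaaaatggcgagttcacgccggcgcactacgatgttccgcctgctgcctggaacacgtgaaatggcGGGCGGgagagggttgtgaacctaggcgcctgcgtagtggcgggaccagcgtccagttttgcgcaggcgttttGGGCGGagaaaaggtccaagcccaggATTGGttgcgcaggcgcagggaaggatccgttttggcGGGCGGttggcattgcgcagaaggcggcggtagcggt

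The Cbx3 and Cbx5 windows were as rich in CpG as those of the genes with a site. The Cbx3 window held 34 CpG, and 88.5% of all promoter windows with at least that many overlapped a site. The upstream Cbx5 window held 29 CpG, and 88.6% of windows with at least that many did so. Both genes start head to head with a ribonucleoprotein gene, Cbx3 with Hnrnpa2b1 and Cbx5 with Hnrnpa1. No site was listed at the 5′ end of either neighbour, the nearest being 9466 and 7965 bp away. Whether reads there were too few for a peak or were left out in peak calling is not given in the sources used here.

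Accessibility was high at the starts that were listed as sites. The genotypes overlapped at 6 of these 9 starts. Over all sites, both KO libraries lay above both WT libraries at 14.6% and below both at 14.3%, with overlap at the rest. A site overlapped a protein-coding start of 9 genes, all but Cbx3, and these 9 sites had means over the 4 libraries of 121.5 (Setdb1) to 747.5 (Kdm4a), where the median site of the table had 52. Per kb of site, the level was 189 (Setdb1) to 803 (Kdm4a), which placed them between the 71.9th and the 99.9th percentile of all sites. For 6 genes (Suv39h2, Ehmt1, Ehmt2, Setdb1, Cbx1 and Kdm4a) the site covered the 5′ end of the gene, and 63.8% of all protein-coding genes had a site within 3 kb of theirs. In Cbx5, Trim28 and Kdm4c it covered a coding start further inside the annotated gene, and these were joined to the other 6 after the values had been seen.

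**Figure D1:**
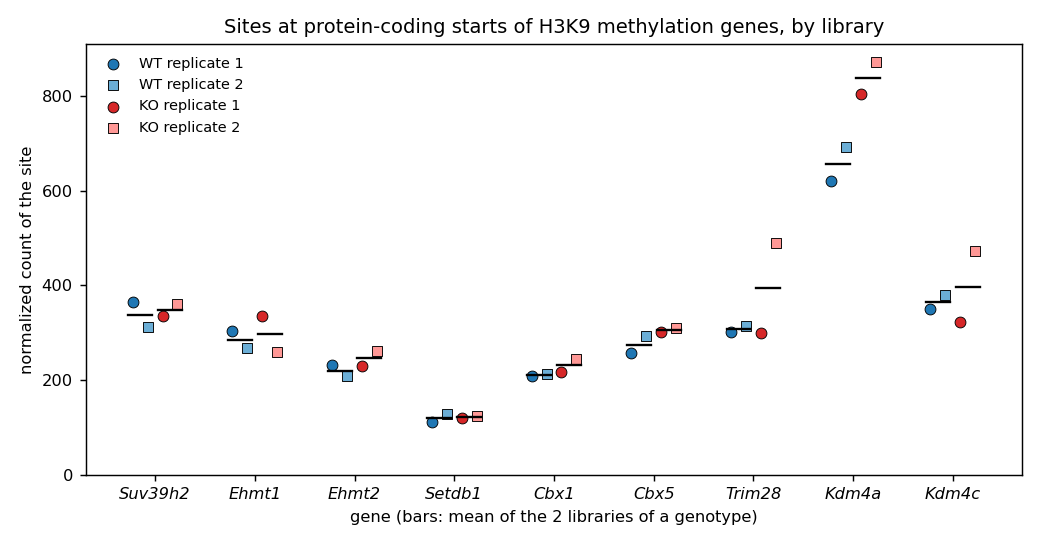
Normalized count of the site at a protein-coding start of 9 genes, in each of the 4 libraries (circles, replicate 1, squares, replicate 2, blue, WT, red, KO), with a bar at the mean of each genotype. Kdm4a stands highest, with both KO libraries (804 and 872) above both WT libraries (621 and 693), and in Trim28 and Kdm4c KO replicate 2 (489 and 472) stands apart from KO replicate 1 (299 and 322).

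None of the 32 sites was called differentially accessible in limma, which took an unadjusted p under 0.01 and a log2 fold change of 1 or more in either direction, where 0.373% of all sites were. At an unadjusted p under 0.05, 1 of the 32 passed, the Kdm4a promoter, against 3.13% of all sites. The adjusted p over all sites was 1 for each of the 32, and no site of the whole table had one under 0.05. The fold changes (log2, KO against WT) ran from −0.48 to 0.69 with a median of 0.08, beside a median of 0.01 over all sites. Of the 32, 21 (65.6%) lay above 0, as did 50.7% of all sites. The median of the 32 was −0.01 after quantile normalization, 0.19 without KO replicate 1, −0.0025 without KO replicate 2 and 0.0084 with equal totals. Over all sites it was −0.0002, 0.0096, 0.013 and −0.061 in the same order. With equal totals the median of all sites thus fell as well. Against the median of all sites, that of the 32 changed with quantile normalization and with the KO line left out. The absolute fold change had a median of 0.17, against 0.25 over all sites, and 2 of the 32 (6.25%) reached 0.5 where 23.7% of all sites did. At 17 sites the 95% interval lay inside −1 to 1, and at the other 15 it reached a 2-fold difference, which these libraries cannot exclude there.

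**Figure D2:**
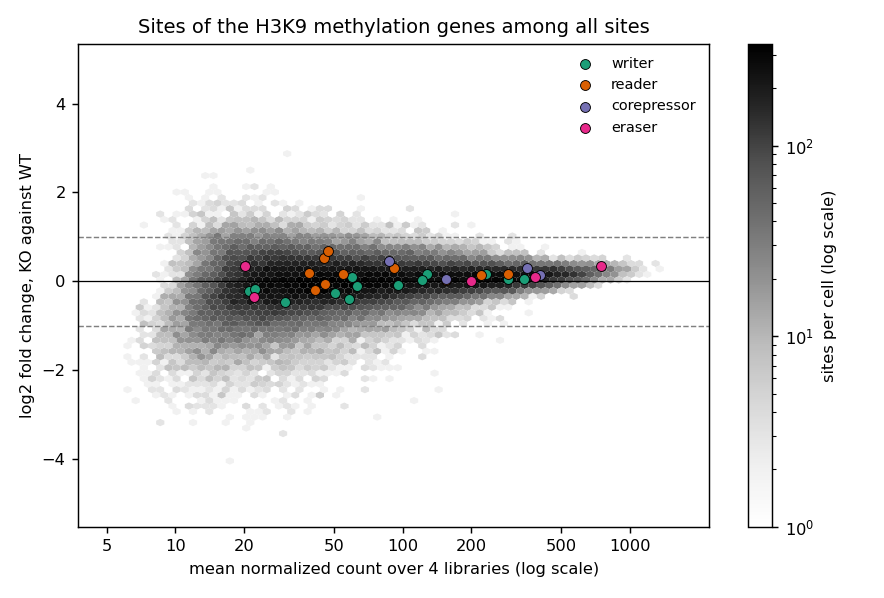
Log2 fold change of KO against WT (limma) plotted against the mean normalized count over the 4 libraries on a log scale, with all 82325 sites as grey cells and the 32 sites of the H3K9 methylation genes coloured by role, dashed lines marking −1 and 1. All 32 lie between −0.48 and 0.69, with the wider values among sites of under 100 counts.

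At 29 of the 32 sites (90.6%) the log2 range between the libraries of at least 1 genotype was wider than the difference between the genotype means, as it was at 81.1% of all sites. Both KO libraries lay above both WT libraries at 4 sites (12.5%, with 14.6% of all sites), which were those at the starts of Kdm4a, Cbx1 and Cbx5 and the single site of Cbx3. Both lay below at 1 site (3.13%, with 14.3% of all sites), in an intron of Ehmt1. The gap between the genotypes was 111 counts at Kdm4a, 16 at Cbx3, 9 at Cbx5, 5 at Cbx1 and 3 at Ehmt1. These are values as deposited, where the KO totals (8427919 and 8516263) were above the WT totals (8008069 and 8150872). With equal totals the log2 fold changes at the Cbx1 and Cbx5 starts were 0.07 and 0.09, so that their small gaps depend on the scaling. With 2 libraries against 2, an exact permutation test cannot go below a two-sided p of 0.333. KO replicate 2, the shallowest library, was above KO replicate 1 at 23 of the 32 sites, by a median of 0.20 on the log2 scale, where over all sites it was above at 49.8% with a median of 0. The part of depth in this was not tested.

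**Figure D3:**
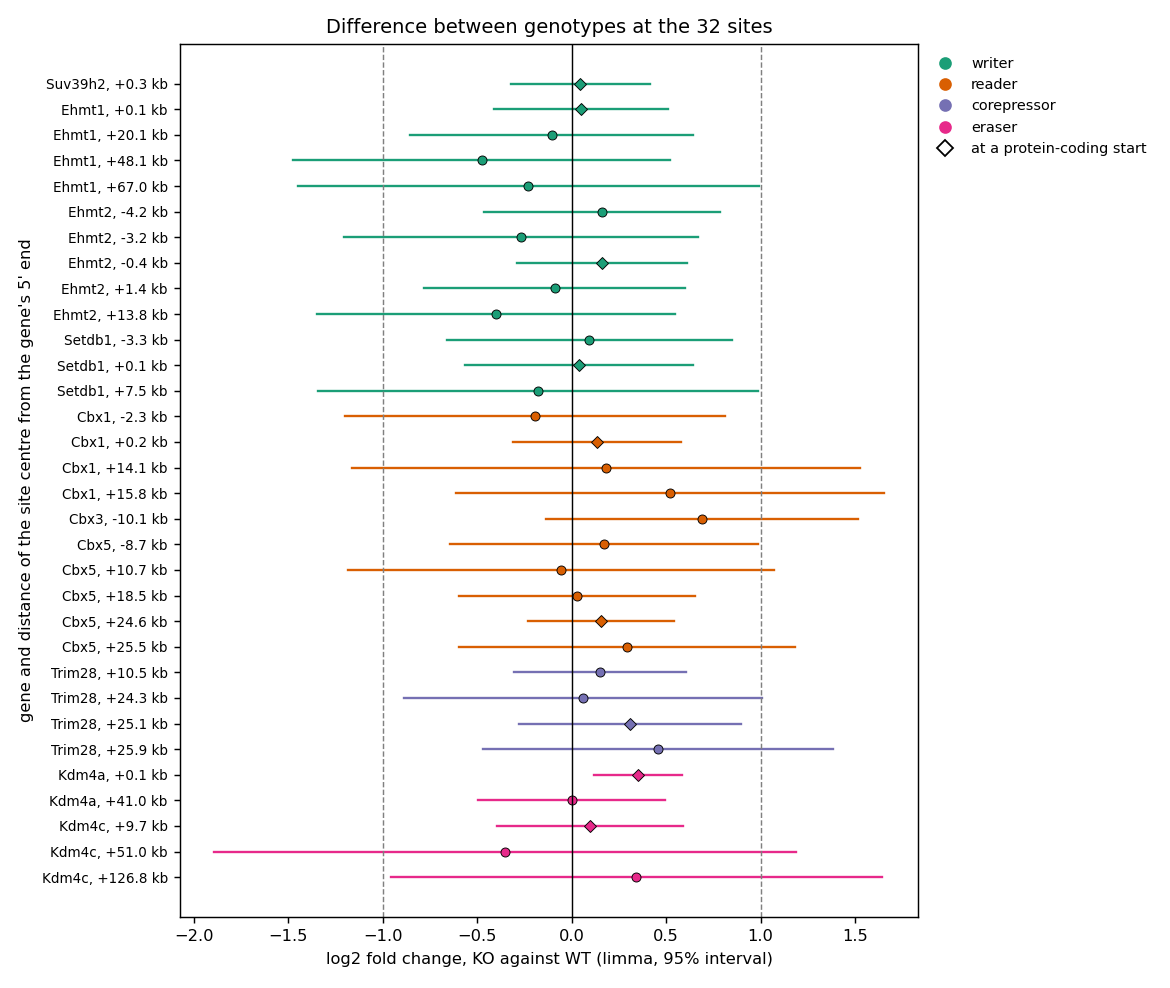
Log2 fold change of KO against WT with its 95% interval from limma at the 32 sites, ordered by gene and by the distance of the site centre from the gene's 5′ end, with diamonds for sites at a protein-coding start. The interval excludes 0 at the Kdm4a start only, and 15 intervals reach −1 or 1.

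Among the writers, the methyltransferase genes, no start differed between genotypes beyond the spread between lines. Suv39h2 had a single site (chr2:3474119-3475345), over its first exon and the end of the antisense gene Gm13184, whose reads cannot be told apart from its own. It held 364 and 312 normalized counts in WT replicates 1 and 2, and 335 and 361 in KO replicates 1 and 2. The KO values fell inside the WT range, and the log2 fold change was 0.05 (SE 0.15, 95% interval −0.32 to 0.41).

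Ehmt1, the larger of the paired dimethylating enzymes' genes at 129.7 kb, had its strongest site at the promoter (chr2:24918941-24920002). There the WT libraries held 303 and 267 and the KO libraries 335 and 259, with a log2 fold change of 0.05 (SE 0.19). The KO lines enclosed the WT lines. Its 3 other sites were weaker and all had values of the fold change below 0. The strongest of them, in an intron about 20.1 kb into the gene (chr2:24899319-24899753), held 64 and 66 in WT and 56 and 65 in KO (log2 fold change −0.11, SE 0.31). A site at the start of a transcript annotated for nonsense-mediated decay (chr2:24852450-24852763) held 24 and 21 in WT and 24 and 15 in KO.

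The other intronic site of Ehmt1 had the lowest fold change of the 32 and lay outside the naming rule, because its mean was below that of the median site, so it was chosen after its values were seen. It held 30 and 41 in WT and 27 and 23 in KO (chr2:24871296-24871688). Both KO lines were below both WT lines, with a log2 fold change of −0.48 (SE 0.41, 95% interval −1.48 to 0.52). Its central 300 bases hold 1 match to the AP-1 motif TGANTCA, shown in capitals, which FOS and JUN family factors bind.
Ehmt1 intronic site, chr2:24871342-24871641, plus strand: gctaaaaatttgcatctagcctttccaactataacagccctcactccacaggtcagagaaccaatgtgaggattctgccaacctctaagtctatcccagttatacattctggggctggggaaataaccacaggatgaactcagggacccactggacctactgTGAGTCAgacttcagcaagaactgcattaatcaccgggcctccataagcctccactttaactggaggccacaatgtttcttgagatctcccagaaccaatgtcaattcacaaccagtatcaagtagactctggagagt

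Ehmt2, which encodes G9a, lies in the gene-dense class III region of the major histocompatibility complex, and 3 of its 5 sites also overlap the complement gene C2, 2 of them Zbtb12 as well. The site over its 5′ end (chr17:34897636-34898541) also covers the start of C2 on the other strand. It held 232 and 208 in WT and 230 and 262 in KO (log2 fold change 0.16, SE 0.19). The WT lines differed from each other by about as much as the KO mean differed from the WT mean. Upstream, a site shared with C2 and Zbtb12 (chr17:34893951-34894558) held 132 and 109 in WT and 123 and 146 in KO, and the smaller one beside it (chr17:34895215-34895414) held 65 and 45 in WT and 37 and 54 in KO. Their log2 fold changes were 0.16 and −0.27. The exonic site 13.8 kb from the 5′ end (chr17:34912035-34912437) held 82 and 51 in WT and 58 and 41 in KO, for a log2 fold change of −0.40 (SE 0.39) that was −0.06 without WT replicate 1, −0.74 without WT replicate 2, −0.65 without KO replicate 1 and −0.16 without KO replicate 2. The site 1.4 kb in (chr17:34899631-34900134) held 107 and 89 in WT and 100 and 84 in KO (−0.09, SE 0.29). At both the genotypes overlapped, and KO replicate 1 was above WT replicate 2.

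Setdb1, whose product makes trimethylated H3K9 at retrotransposons, had the weakest start of the 9 (chr3:95356811-95357454), with 111 and 129 in WT and 121 and 125 in KO. That site also overlaps the annotated gene Gm37500 on the other strand. The KO lines lay between the WT lines, and the log2 fold change was 0.04 (SE 0.25, 95% interval −0.56 to 0.64). An intergenic site 3.3 kb upstream (chr3:95360317-95360772) held 60 and 56 in WT and 59 and 65 in KO. The intronic site 7.5 kb into the gene (chr3:95349560-95349800) was at 28 and 20 in WT and 18 and 24 in KO.

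**Figure D4:**
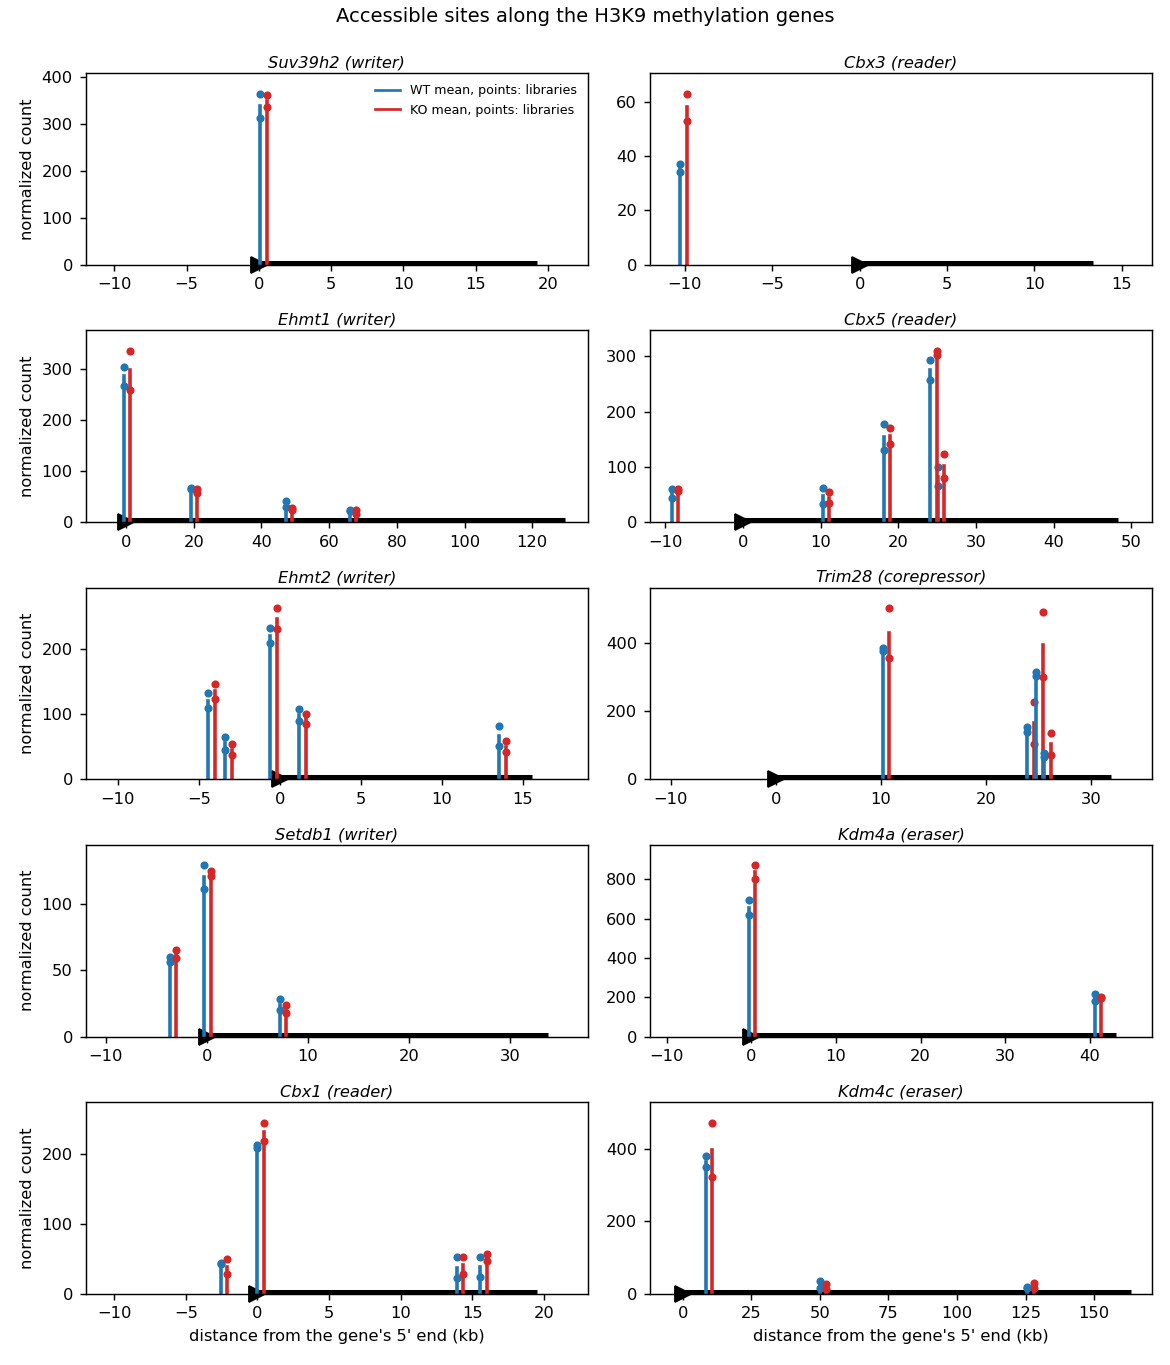
Mean normalized count of WT (blue) and KO (red) at each site along the 10 genes, with points for the libraries, against the distance of the site centre from the gene's 5′ end in kb, where the black bar is the annotated gene and the triangle its 5′ end and direction. The tallest site of a gene stands at or near its 5′ end in 6 genes, and Cbx3 shows a single low site 10.1 kb upstream.

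Of the readers, the heterochromatin protein 1 genes, Cbx1 alone had a site at its annotated 5′ end, Cbx5 had one at an internal start and Cbx3 had none. In Cbx1 it lay over its first exon (chr11:96788937-96789744), with 208 and 213 in WT and 218 and 245 in KO. Both KO lines were above both WT lines, by a log2 fold change of 0.13 (SE 0.18, 95% interval −0.31 to 0.58). Its strongest other site, in an intron 15.8 kb from the 5′ end (chr11:96804630-96805207), held 53 and 24 in WT and 57 and 47 in KO (log2 fold change 0.52, SE 0.47). WT replicate 2 was low there, and the fold change was −0.03 without it and 1.08 without WT replicate 1. The same library was low at the exonic site next to it (chr11:96803100-96803438), with 52 and 22 in WT and 28 and 53 in KO. A site 2.3 kb upstream of the gene (chr11:96786683-96786914) held 42 and 44 in WT and 28 and 50 in KO.

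Cbx3 had no site at its start and 1 within reach of the rule, 10.1 kb upstream and just beyond the 3′ end of Hnrnpa2b1 (chr6:51460164-51460428). It held 37 and 34 in WT and 53 and 63 in KO, so that both KO lines were above both WT lines. The log2 fold change of 0.69 was the highest of the 32 (SE 0.34, 95% interval −0.14 to 1.51), the unadjusted p in limma was 0.0880 and the adjusted p was 1. Over all the alternatives the fold change stayed between 0.57 and 0.81. The site lies 9.9 kb from any start of Cbx3, and to which gene it belongs was not tested. Its bases are shown with the 1 match to the AP-1 motif in capitals.
Cbx3 upstream site, chr6:51460164-51460428, plus strand: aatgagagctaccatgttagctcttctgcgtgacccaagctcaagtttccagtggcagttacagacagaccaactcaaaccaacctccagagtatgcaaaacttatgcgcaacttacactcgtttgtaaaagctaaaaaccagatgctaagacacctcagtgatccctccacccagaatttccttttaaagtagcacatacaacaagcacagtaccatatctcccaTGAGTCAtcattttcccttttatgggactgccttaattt

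Cbx5 had its strongest site at an internal coding start 24.6 kb from the 5′ end (chr15:103214879-103215637), with 257 and 293 in WT and 302 and 310 in KO. The KO lines were above the WT lines by a log2 fold change of 0.16 (SE 0.16, 95% interval −0.23 to 0.54), and the gap between the higher WT and the lower KO line was smaller than that between the WT lines. After centring by chromosome the fold change was 0.04. The median of all sites of chromosome 15 was 0.16 in KO replicate 1 against the mean of the 4 libraries. The RefSeq window at this start held 8 CpG, the fewest of the windows that overlapped a site. Just past it an intronic site (chr15:103214073-103214534) held 65 and 99 in WT and 79 and 123 in KO, with a log2 fold change of 0.29 (SE 0.37) that was 0.61 without KO replicate 1 and −0.02 without KO replicate 2, and 0.59 and −0.0058 without WT replicates 2 and 1. A larger intronic site (chr15:103220827-103221779) held 131 and 177 in WT and 142 and 170 in KO, the KO lines lying between the WT lines. A weaker intronic site (chr15:103228917-103229369) held 32 and 62 in WT and 34 and 54 in KO, and the upstream one, inside Nfe2 (chr15:103248397-103248674), held 59 and 44 in WT and 59 and 56 in KO.

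Trim28, the corepressor that recruits SETDB1, carried the widest spread between the lines of 1 genotype among the 10 summed genes. GENCODE sets its 5′ end at a non-coding transcript, and the coding transcript starts further on, under a site 25.1 kb from that end (chr7:13023819-13024677), which held 302 and 315 in WT and 299 and 489 in KO. KO replicate 2 was far above the other 3 libraries, which lay between 299 and 315. The log2 fold change of 0.31 (SE 0.24) became −0.04 without KO replicate 2 and 0.66 without KO replicate 1. The neighbouring sites were also highest in that library. On the upstream side (chr7:13023081-13023713) the values were 153 and 139 in WT and 102 and 226 in KO, and on the downstream side (chr7:13024786-13025255) 76 and 66 in WT and 71 and 134 in KO. The fourth site lies in the annotated gene but covers the start of Zbtb45 (chr7:13009029-13010221), and held 385 and 374 in WT and 354 and 501 in KO. At all 4 sites KO replicate 2 was the highest library. Summed, they gave 916 and 894 in WT and 826 and 1350 in KO, a log2 fold change of 0.22 (SE 0.22) that was −0.13 without KO replicate 2 and 0.58 without KO replicate 1.

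Of the 32 sites, the one with the lowest p was at the start of an eraser gene. The Kdm4a promoter (chr4:118179477-118180407) held 621 and 693 in WT, or 657 ± 50.9 (SD, n = 2), and 804 and 872 in KO, or 838 ± 48.1 (SD, n = 2). Both KO lines were above both WT lines, and the gap between the nearest of them, 111 counts, was wider than the range within either genotype. The log2 fold change was 0.35 (SE 0.10, 95% interval 0.12 to 0.58), with an unadjusted p of 0.00983 in limma and an adjusted p of 1. Its p was among the lowest 0.509% of all sites, and the site, at the 99.7th percentile of the table by mean, had the smallest SE of the 32. Over the alternatives the fold change ran from 0.14 to 0.43 and the unadjusted p from 0.00263 to 0.164, the lowest fold and highest p after quantile normalization, which scales the strongest sites of the libraries to each other. The gene's other site, in an exon 41.0 kb downstream (chr4:118138848-118139319), held 180 and 219 in WT and 203 and 194 in KO, a log2 fold change of −0.00073 (SE 0.21, 95% interval −0.50 to 0.50).

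Kdm4c, the other eraser, had a site over the start of its main coding transcript, 9.7 kb into the annotated gene and shared with the antisense gene A230083N12Rik (chr4:74251447-74252865). It held 350 and 379 in WT and 322 and 472 in KO, so that the KO lines enclosed the WT lines (log2 fold change 0.10, SE 0.20). Without KO replicate 2 the fold change was −0.18, and without KO replicate 1 it was 0.37. The 2 intronic sites were among the lowest of the 32. One (chr4:74293291-74293726) held 16 and 34 in WT and 12 and 27 in KO, and the other (chr4:74369167-74369445) held 20 and 15 in WT and 29 and 17 in KO.

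Taken by position, the sites at the 9 coding starts and the other 23 differed in level and in steadiness. The starts had a median mean of 291 counts and the others 54.5. The replicates of WT differed by a median absolute log2 difference of 0.16 at the starts and 0.39 at the others. All 9 starts had fold changes above 0, from 0.04 to 0.35 with a median of 0.13. With equal library totals Suv39h2, Ehmt1 and Setdb1 were below 0, where the median of all sites was −0.061. After quantile normalization these and Kdm4c were below 0. Of the 12588 sites nearest to the 5′ end of a protein-coding gene and within 3 kb of it, 55.0% lay above 0 with a median of 0.02. Those sites had a median mean of 206.5 and need not overlap a start. The starts of Cbx5, Trim28 and Kdm4c do not meet that rule for their own gene. The other 23 had a median of 0.03 and 12 of them lay above 0. By annotation, 22 of the 32 (68.8%) were promoter sites, against 35.4% of the table. Such sites lay within 3 kb of a start of any transcript of any gene. Of the rest, 7 were intronic, 2 exonic and 1 intergenic. The promoter class was set first, so that some sites described above as intronic or exonic in their gene fall in it. So does the upstream site of Cbx3. The AP-1 motif was in 5 of the 32 within 300 bases around the centre (Ehmt1, Cbx3, the exonic site of Kdm4a and, with 2 sites, Cbx1), against 37.7% of all sites, and in 3 of the 10 outside the promoter class, against 46.0% of such sites. The Kdm4a promoter window shown above also holds TGAGTCA, in lower case, outside the central 300 bases of its site.

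Summed over its sites, no gene of the 10 was called by the same rule in limma, where 0.301% of 16947 protein-coding genes with a site were. In the main test none had an unadjusted p under 0.05, where 3.88% did. The lowest unadjusted p was 0.0596, for Kdm4a, and the adjusted p ran from 0.928 to 0.994. Fold changes (log2) were 0.05 for Suv39h2, −0.03 for Ehmt1, 0.03 for Ehmt2 and 0.03 for Setdb1 among the writers. Among the readers they were 0.14 for Cbx1, 0.69 for Cbx3 and 0.13 for Cbx5, the last being 0.01 after centring by chromosome. Kdm4a, with 801 and 912 in WT and 1007 and 1066 in KO, stood at 0.28 (SE 0.12, 95% interval −0.02 to 0.57). Its summed fold change was 0.09 after quantile normalization and 0.29 after centring by chromosome (unadjusted p 0.0238 in limma). It was 0.18 without WT replicate 1 and 0.37 without WT replicate 2. Kdm4c stood at 0.09. The median of the 10 was 0.11 and 9 were above 0, beside a median of 0.04 and 59.7% above 0 over all genes. Both KO libraries were above both WT libraries in 2 of the 10, Cbx3 and Kdm4a, as in 22.5% of all genes.

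None of the other genes of the pathway was called either. A list of 21, chosen with earlier results known, held further methyltransferases and their partners (Suv39h1, Setdb2, Prdm2, Atf7ip, Wiz, Zfp644), the HUSH silencing complex and its partner (Mphosph8, Fam208a, Pphln1, Morc2a), the readers Cdyl and Uhrf1, and the demethylases Kdm1a, Kdm3a, Kdm3b, Jmjd1c, Kdm4b, Kdm4d, Kdm7a, Phf8 and Phf2. All 21 had a site, none was called in either direction, and none had an unadjusted p under 0.05 in limma, as 3.88% of all genes did. The fold changes ran from −0.13 to 0.22 with a median of 0.07, beside 0.04 over all genes. Of the 21, 18 (85.7%) were above 0, against 59.7% of all genes, and in 7 (33.3%) both KO libraries were above both WT libraries, against 22.5%. As the list was chosen with earlier results known, these shares are a description. The lowest was Kdm7a, which encodes a demethylase of H3K9 and H3K27, with 426 and 346 in WT and 374 and 327 in KO. The highest was Kdm3a, a demethylase of mono- and dimethylated H3K9, with 597 and 507 in WT and 628 and 656 in KO, a log2 fold change of 0.22 (SE 0.13, adjusted p 0.928 in limma).

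Domains that lose accessibility without HAT1 were found in the study from sliding means of fold changes in primary MEFs, with neighbouring regions under a limit joined. The study also reported very similar patterns of these domains from ATAC-Seq of immortalized MEFs. Here a single window of 25 sites of the immortalized lines was averaged around the 5′ end of each of the 10 genes, with the limma fold changes and no joining, and read against a limit of −0.58. Only the window size and the limit are those of the domain search. None of the 10 means was under −0.58, where 3.18% of 21397 protein-coding genes had one. They ran from −0.37 (Kdm4c) to 0.13 (Cbx5). The Cbx5 mean was 0.013 after centring by chromosome and 0.063 with equal totals. That of Suv39h2, 0.127, was 0.060 with equal totals and 0.212 with a minimum mean of 20. The Kdm4c window covered 3.81 Mb, and its mean was 0.19 without KO replicate 1 and −0.92 without KO replicate 2. There, KO replicate 1 lay 0.74 below the mean of the 4 libraries on the log2 scale, while KO replicate 2 and WT replicate 2 lay 0.38 and 0.39 above it. Around Trim28 the mean was 0.09, with KO replicate 1 at −0.28 and KO replicate 2 at 0.37 against the mean of the 4 libraries, but this window includes the gene's own 4 sites. The other 21 sites, taken alone after the values had been seen, were at −0.28 in KO replicate 1 and 0.34 in KO replicate 2, with a mean fold change of 0.06. Without the sites of Kdm4c its window stood at −0.42. The median of all sites of chromosome 7 was 0.12 in KO replicate 2 against the 4-library mean and −0.07 in KO replicate 1.

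**Figure D5:**
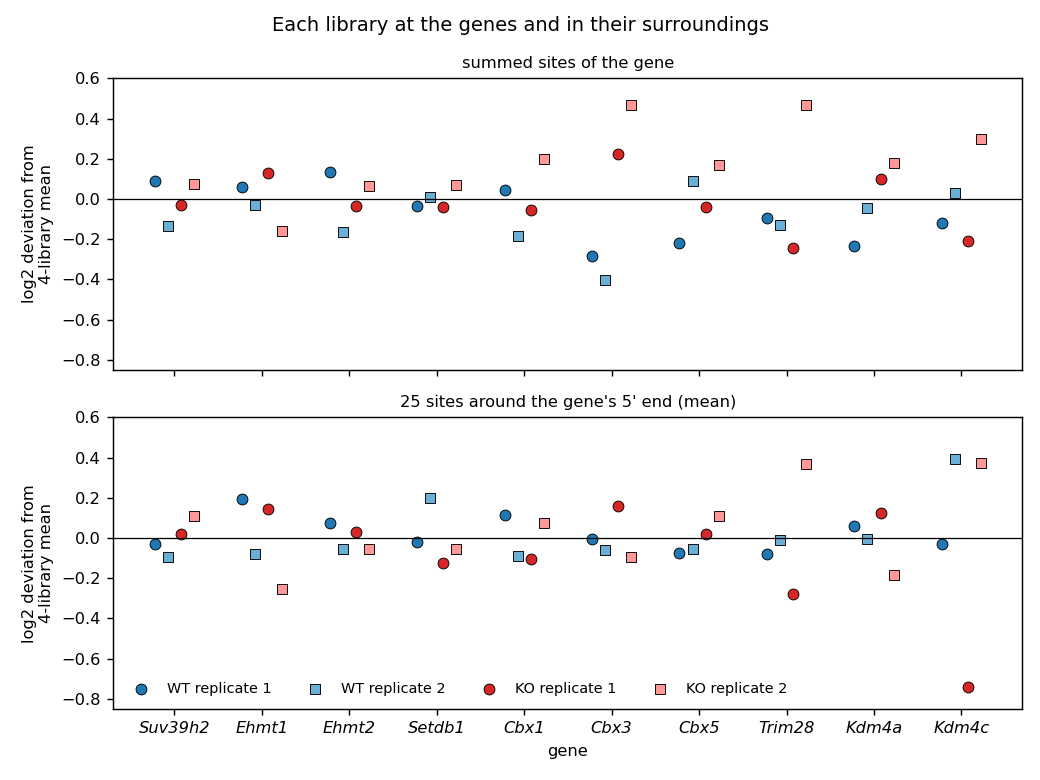
Deviation of each library from the mean of the 4 libraries (log2) for the summed sites of each gene (upper panel) and for the 25 sites around its 5′ end (lower panel), with WT in blue, KO in red, circles for replicate 1 and squares for replicate 2. At Trim28 KO replicate 2 is high in both panels, and around Kdm4c KO replicate 1 stands at −0.74.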

How the data were processed

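The 4 imMEF libraries (2 WT, 2 KO) are those of 1 table of 82325 sites. Per the study's methods and the submitters' notes, the authors used BWA 0.7.12 to align read pairs to mm10, MACS2 2.1.0 to call peaks and DESeq2 to compare genotypes. The deposited values per library are a score: read counts that the authors scaled by library and rounded. Read filtering and the handling of the Tn5 offset are not given in the sources used here. The table also holds the authors' fold changes and p-values, which were not used.

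Members and lists were chosen with earlier results of these data known. The main test was limma 3.58.1 (R 4.3.3) with an intensity trend on log2(value + 1), over all sites or all summed genes, with Benjamini-Hochberg adjustment, since scaled values are not raw counts. Fold changes are on this log2(value + 1) scale, which understates low sites. The script was tested on simulated data. Every gene is named with its promoter site, its strongest other site, and the 3 largest rises and 3 largest falls among sites outside the promoter sites with a mean at or above the median of the table, and of the other pathway genes the largest rise and fall. Depth was estimated from the steps that scaling leaves in low values, and intervals come from the spread between libraries of a genotype as pooled by limma. Genes came from GENCODE, sequences from RefSeq (GRCm38.p6), with Python 3.11.15 and pysam 0.24.0. Alternatives were equal totals, quantile normalization, centring by chromosome, a pseudocount of 8, a minimum mean of 20, other thresholds and site definitions, and leaving out each library.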

Additional observations from a re-analysis of the deposited data

How the results depend on the processing

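No paired analysis was possible because numbers given in order of deposit pair no lines. The titles of WT replicate 1 and KO replicate 2 share a line number whose meaning is not given, and the other lines share none, which leaves 1 pair at most. No site of the 10 genes was called under any alternative with the same thresholds, nor was any of the 10 summed genes or the 21 other pathway genes. In the main limma fit alone, 1 site, the Kdm4a promoter, passed an unadjusted p under 0.05 with no fold filter. That count was not taken in the other fits. The median fold change of the sites was −0.0025 to 0.187 when a library was left out. All of the sign changes below are of fold changes that were never called, and the cause was not tested. With equal totals, where the median of all sites was −0.061, they were −0.018 (Ehmt1), −0.029 (Setdb1) and −0.023 (Suv39h2) at the starts. Over the summed sites they were −0.023 (Suv39h2), −0.042 (Ehmt2) and −0.041 (Setdb1). After quantile normalization they were −0.044 (Ehmt1), −0.010 (Setdb1), −0.064 (Suv39h2) and −0.034 (Kdm4c) at the starts, and −0.064 (Suv39h2), −0.031 (Ehmt2) and −0.012 (Kdm4c) summed. Centring by chromosome gave 0.011 at the exonic Kdm4a site.

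Leaving out 1 library at a time, the starts ranged over −0.135 to 0.235 (Ehmt1), −0.068 to 0.147 (Setdb1), −0.066 to 0.156 (Suv39h2), −0.045 to 0.663 (Trim28) and −0.177 to 0.373 (Kdm4c). Summed sites ranged over −0.066 to 0.156 (Suv39h2), −0.171 to 0.116 (Ehmt1), −0.124 to 0.176 (Ehmt2), −0.029 to 0.083 (Setdb1), −0.026 to 0.284 (Cbx5), −0.132 to 0.577 (Trim28) and −0.163 to 0.344 (Kdm4c). The other named sites ranged over −0.211 to 0.00017 (Ehmt1, 20.1 kb in), −0.221 to 0.042 (Ehmt2, 1.4 kb in), −0.022 to 0.610 (Cbx5, beside its internal start), −0.033 to 1.08 (Cbx1, 15.8 kb in), −0.0999 to 0.3999 (Trim28, at the Zbtb45 start) and −0.142 to 0.14 (Kdm4a, exonic). Over all alternatives the remaining named sites and summed genes kept their sign, among them with ranges of 0.066 to 0.253 (Ehmt2), 0.048 to 0.218 (Cbx1) and 0.039 to 0.251 (Cbx5) at the starts, 0.0035 to 0.910 (Trim28, downstream of its start), −0.738 to −0.063 (Ehmt2, exonic), and 0.013 to 0.268 (Cbx1) and 0.091 to 0.371 (Kdm4a) summed. A fit without 1 library assumes that the lone line of its genotype varies like the others.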
